A study of Mus musculus with 6 samples.

Results

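Imprinted genes were compared between 2 related mouse keratinocyte lines. The members were 39 genes described as imprinted in mouse, taken by symbol from the 24982 genes of each file, and they lie in 17 clusters or single loci. RNA-seq had been done on 3 libraries of KSFM-Ca2+ cells and 3 libraries of DKSFM cells. KSFM-Ca2+ cells are untreated keratinocytes of newborn C57BL/6 mice that were derived and grown in KSFM-Ca2+, a serum-free medium low in calcium, and DKSFM cells are their descendants, adapted to and grown in the defined medium DKSFM. The descendants grew from the few cells that survived the change of medium, so line, medium and that survival cannot be told apart. What the replicates were is not stated, so p-values measure only the spread between these libraries, which may be technical.

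Imprinting is the expression of a gene from 1 parental allele only, set by DNA methylation that is laid down in the egg or the sperm and then kept in the body's cells. Many imprinted genes act on growth, with paternally expressed genes such as Igf2 often promoting it and maternally expressed genes often restraining it. Several are high in the fetus and are turned down after birth, and imprinting of some is limited to the placenta or the brain. The mice were of 1 inbred strain and the files give a value per gene, so the parental allele in use was not measured here, and the expressed allele named below is background.

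Values are the mean read coverage per base of a gene, scaled between libraries, and called normalized coverage. Total coverage was 1057750 to 1601676 per library. A difference is given as log2 fold change, DKSFM minus KSFM-Ca2+, of normalized coverage plus 0.1, with its standard error (SE) and 3 libraries in each line. The added 0.1 is the rounding step of the files, and it understates the change of low genes. A gene is called changed at an adjusted p under 0.01 from limma.

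Of the 39 members, 10 were listed at 0 in all 6 libraries, and 24 passed the filter on low values, which kept genes that reached 0.5 in 3 or more libraries after scaling. Among these 24, 11 rose and 9 fell in DKSFM cells, 20 in all, while 4 did not pass the threshold. Over all 12450 tested genes 72.5% were called, 35.5% higher and 37.0% lower. The count of members called is thus to be read against lines in which most tested genes differ. At least 2-fold changes were fewer: 8 members rose by that much, where 13.3% of all tested genes did, and 4 fell by that much, where 10.5% did. The median size of the change, whatever its sign, was 1.04 among the tested members and 0.49 among all tested genes. The libraries of the lines did not overlap for 23 of the 24 members, and for 83.2% of all tested genes. Of the 24, 5 reached the filter through 1 line alone and 19 through both. Of all tested genes, 819 did so through 1 line and 11631 through both, a smaller share through 1 line than among the members. For such genes a difference is partly built into the filter, which bears on the 2-fold counts and median size above. The 5 members were H19, Usp29 and Mkrn3 through DKSFM cells and Phlda2 and Peg12 through KSFM-Ca2+ cells.

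**Figure D1:**
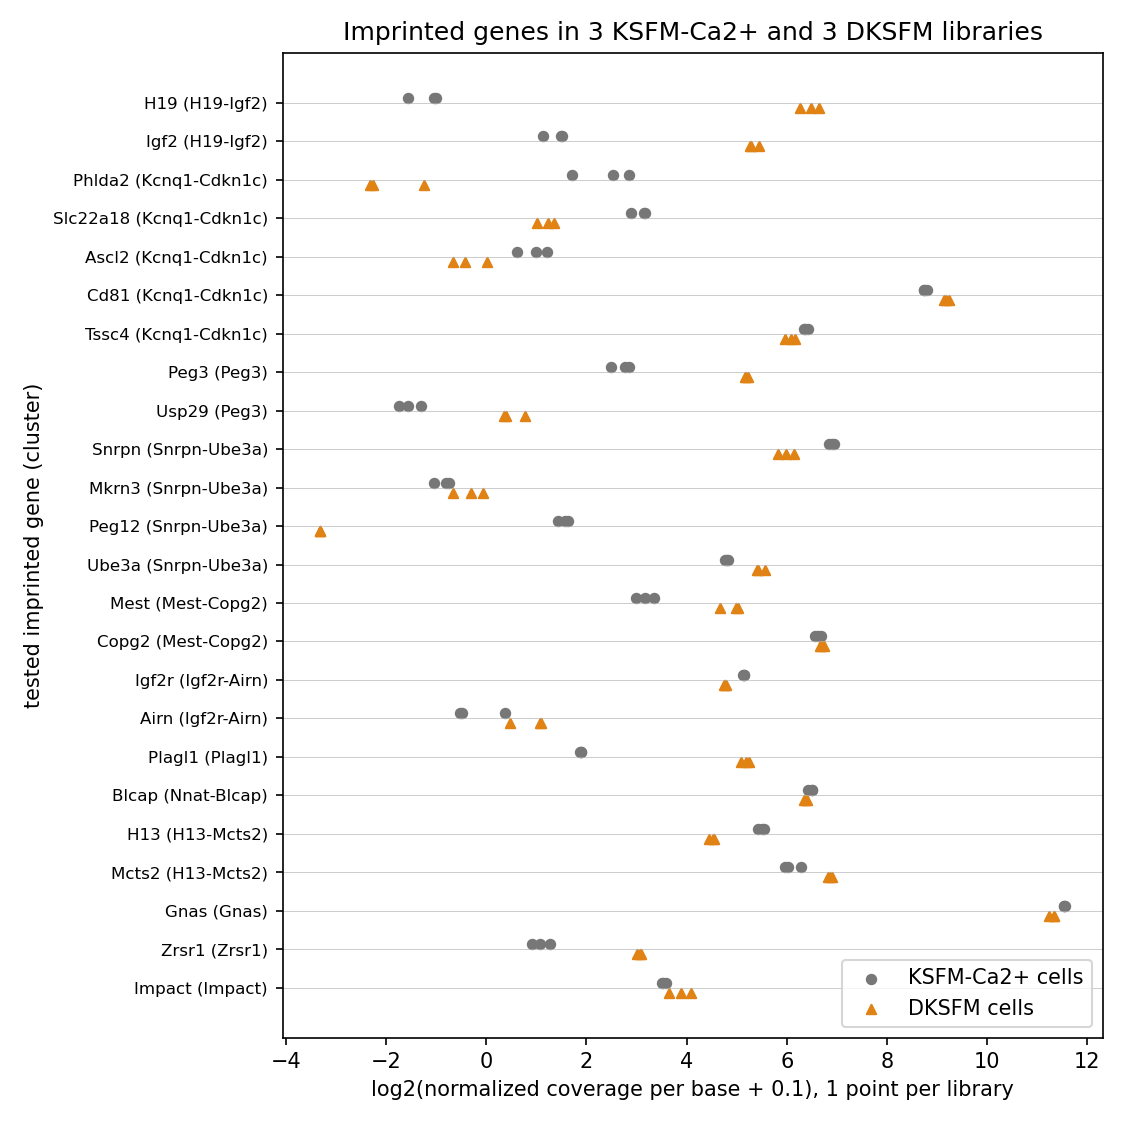
Normalized coverage of the 24 tested imprinted genes on the log2(coverage + 0.1) scale (horizontal axis), with 1 point for each of the 3 KSFM-Ca2+ libraries (circles) and the 3 DKSFM libraries (triangles) and the cluster in brackets. H19, Igf2, Plagl1 and Peg3 are far higher in every DKSFM library, Phlda2 and Peg12 are far lower, and the circles and triangles of Copg2 overlap.

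Promoter windows of 6 members are shown because these genes, chosen after their values were seen, had large changes and, in mouse, control of several of them is known to act through methylation of CG dinucleotides near the start. Windows of 300 bases around transcript starts came from RefSeq (GRCm38.p6) and were found for 32 of the 39 members, all but H19, Kcnq1, Cdkn1c, Peg10, Sgce, Dcn and Impact. Where a gene had several windows, the one with the most CG is given. Each is written 5′ to 3′ on the gene's strand, and the capitals mark CG. The first 4 belong to genes that were higher in DKSFM cells and the last pair to genes that were lower.
Igf2, chr7:142658755-142659054, minus strand: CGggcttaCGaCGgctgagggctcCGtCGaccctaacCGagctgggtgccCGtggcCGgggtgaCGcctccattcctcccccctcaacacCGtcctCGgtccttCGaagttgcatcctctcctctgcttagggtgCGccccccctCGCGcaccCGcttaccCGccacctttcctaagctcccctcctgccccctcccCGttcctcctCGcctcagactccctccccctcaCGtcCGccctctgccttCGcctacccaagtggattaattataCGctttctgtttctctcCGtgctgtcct
Plagl1, chr10:13090582-13090881, plus strand: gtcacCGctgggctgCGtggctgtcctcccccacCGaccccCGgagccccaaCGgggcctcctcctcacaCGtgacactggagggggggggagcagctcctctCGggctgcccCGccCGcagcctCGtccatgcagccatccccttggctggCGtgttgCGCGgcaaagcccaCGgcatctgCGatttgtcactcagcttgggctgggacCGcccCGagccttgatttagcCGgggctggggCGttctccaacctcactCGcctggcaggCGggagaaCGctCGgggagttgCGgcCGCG
Peg3, chr7:6730370-6730669, minus strand: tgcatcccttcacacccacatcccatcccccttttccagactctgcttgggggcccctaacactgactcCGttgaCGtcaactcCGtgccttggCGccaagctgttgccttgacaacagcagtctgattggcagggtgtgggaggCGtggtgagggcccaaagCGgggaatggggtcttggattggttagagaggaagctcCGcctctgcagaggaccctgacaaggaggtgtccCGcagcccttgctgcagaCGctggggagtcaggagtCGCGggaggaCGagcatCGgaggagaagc
Mest, chr6:30737800-30738099, plus strand: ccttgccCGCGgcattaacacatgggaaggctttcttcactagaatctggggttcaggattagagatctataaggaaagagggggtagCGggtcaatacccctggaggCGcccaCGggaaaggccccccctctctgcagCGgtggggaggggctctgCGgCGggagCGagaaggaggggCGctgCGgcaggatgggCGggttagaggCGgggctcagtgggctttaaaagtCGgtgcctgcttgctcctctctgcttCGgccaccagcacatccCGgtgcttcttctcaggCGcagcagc
Phlda2, chr7:143502475-143502774, minus strand: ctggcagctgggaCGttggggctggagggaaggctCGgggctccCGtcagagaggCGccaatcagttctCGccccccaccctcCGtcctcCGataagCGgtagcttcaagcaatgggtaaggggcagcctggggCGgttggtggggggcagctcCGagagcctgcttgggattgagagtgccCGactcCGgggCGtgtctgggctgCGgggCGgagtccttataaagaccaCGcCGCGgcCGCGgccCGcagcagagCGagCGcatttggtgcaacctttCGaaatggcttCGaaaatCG
Peg12, chr7:62464461-62464760, minus strand: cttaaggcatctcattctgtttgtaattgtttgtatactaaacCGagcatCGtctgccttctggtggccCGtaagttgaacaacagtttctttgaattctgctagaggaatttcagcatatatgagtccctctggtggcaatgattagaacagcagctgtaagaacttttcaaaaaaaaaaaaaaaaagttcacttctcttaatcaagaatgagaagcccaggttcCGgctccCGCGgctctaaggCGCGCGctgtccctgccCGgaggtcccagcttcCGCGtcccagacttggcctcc

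These windows held 24 CG in Igf2, 26 in Plagl1, 13 in Peg3, 17 in Mest, 26 in Phlda2 and 12 in Peg12. The median was 16 over the 47 windows of members and 7 over all 32851 windows. Windows with at least as many CG as that of Plagl1 or Phlda2 made up 16.9% of all windows, and with at least as many as that of Peg12 39.6%. The letters TGCCGC, the core that ZFP57, a keeper of imprinted methylation, is known to bind when methylated, were searched on both strands. They were found in 11 of the 47 windows of members (23.4%), 2 of them Mest windows that start 3 bases apart, and in 11.6% of all windows. Windows of members hold more CG, and these letters include a CG. The windows printed for Mest and Plagl1 held 2 and 1 matches, and those of Igf2, Peg3, Phlda2 and Peg12 held 0. A match of letters is a description only, and methylation was not measured.

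The H19-Igf2 cluster on chromosome 7 gave the largest rise. H19, a long noncoding RNA of the maternal allele, had a normalized coverage of 0.385, 0.399 and 0.238 in the 3 KSFM-Ca2+ libraries and of 76.2, 99.3 and 88.9 in the 3 DKSFM libraries. All 3 DKSFM libraries were thus high, the KSFM-Ca2+ libraries were a few rounding steps above 0, and the lines did not overlap. The log2 fold change was 7.66 (SE 0.17, adjusted p = 5.72e-09), and 6.05 with an added constant of 1 in place of 0.1. The mean of 0.341 in KSFM-Ca2+ cells lay above 4.11% of the tested genes of that line, and the mean of 88.1 in DKSFM cells above 78.4%. Bulk libraries cannot tell a few cells with much H19 RNA from many cells with some, and the same holds for fewer cells or less RNA per cell in each result that follows.

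H19 also carries the microRNA miR-675 within an exon, so the file's entry for Mir675 reads coverage of the H19 transcript and not of the mature microRNA, which was not measured. That entry was listed at 0 in all 3 KSFM-Ca2+ libraries and had a normalized coverage of 33.1, 48.1 and 46.0 in the DKSFM libraries. The mature sequences (RefSeq, GRCm38.p6) are shown because they lie in this transcript, with the seed, bases 2 to 8, in capitals. The seeds of the arms differ.
miR-675-5p, chr7:142577112-142577133, minus strand: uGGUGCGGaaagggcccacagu
miR-675-3p, chr7:142577078-142577099, minus strand: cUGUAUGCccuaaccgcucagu

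Igf2, the paternally expressed growth factor IGF2 that shares enhancers with H19, stood at 2.08, 2.70 and 2.74 in KSFM-Ca2+ cells and at 38.8, 38.1 and 43.3 in DKSFM cells. The DKSFM libraries were high without exception and far from the KSFM-Ca2+ range. The log2 fold change was 3.96 (SE 0.11, adjusted p = 2.10e-08), a 15.5-fold rise. Both genes of the cluster, which are reported to be expressed from opposite alleles, thus rose together. The Igf2 window printed above is 1 of 4 listed starts, and coverage per gene does not tell which start was in use. H19 and Igf2 lie at 142575529 to 142578143 and at 142650766 to 142666816.

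Partners of IGF2 moved less. Igf2r, a maternally expressed receptor that carries IGF2 to lysosomes, had a normalized coverage of 35.5, 35.4 and 34.8 in KSFM-Ca2+ cells and of 26.9, 26.9 and 27.5 in DKSFM cells, which do not overlap. It fell by 0.38 on the log2 scale (SE 0.04, adjusted p = 2.59e-05). Of the 8 listed partners, 6 were tested, 3 rose and 3 fell, where 72.5% of all tested genes were called, 35.5% higher and 37.0% lower. Over all tested genes 13.3% rose and 10.5% fell by at least 2-fold, and of the partners 0 rose and 2 fell by that much. These were Irs2, an adapter of the insulin and IGF1 receptors, which went from 24.4 ± 0.56 to 7.75 ± 0.62 (mean ± SD, n = 3), and Igf2bp1, which binds Igf2 mRNA, from 5.47 ± 0.22 to 2.45 ± 0.11. Their log2 fold changes were -1.65 (SE 0.07, adjusted p = 1.65e-07) and -1.13 (SE 0.09, adjusted p = 7.23e-06). Igf1r, the receptor through which IGF2 signals, was just short of 2-fold and is named after its values were seen: it rose from 10.5 ± 0.30 to 20.9 ± 0.72, a log2 fold change of 0.99 (SE 0.05, adjusted p = 7.26e-07).

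Airn, the paternally expressed antisense RNA that silences Igf2r in cis, was low in both lines. Its normalized coverage was 0.615, 1.20 and 0.596 in KSFM-Ca2+ cells and 1.29, 2.02 and 2.03 in DKSFM cells. The highest KSFM-Ca2+ library lay just under the lowest DKSFM library. The log2 fold change was 1.09 (SE 0.29, adjusted p = 0.00837), and the call was lost under 7 of 17 alternatives, among them without KSFM-Ca2+ replicate 1 (log2 fold change 0.95, adjusted p = 0.0330), without KSFM-Ca2+ replicate 3 (0.94, adjusted p = 0.0324), without DKSFM replicate 2 (0.997, adjusted p = 0.0395) and without DKSFM replicate 3 (0.988, adjusted p = 0.0348). Over all 17 alternatives the adjusted p ran from 0.00162 to 0.0395. The change was under 2-fold in these 4, with quantile normalization (0.75) and with an added constant of 1 (0.63) or 0.5, so whether it reached 2-fold depends on the settings and libraries. Airn and Igf2r overlap on opposite strands outside their exons.

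Next to H19-Igf2 on chromosome 7 lies the Kcnq1-Cdkn1c cluster, whose 7 members are reported to be expressed from the maternal allele, in some tissues at least. Phlda2, which restrains growth of the placenta, had a normalized coverage of 3.15, 5.69 and 7.15 in KSFM-Ca2+ cells and of 0.107, 0.101 and 0.321 in DKSFM cells. The KSFM-Ca2+ libraries spread over a wide range, yet the lowest was far above the highest DKSFM library. Phlda2 fell by 4.31 on the log2 scale (SE 0.38, adjusted p = 1.27e-05). With DKSFM values near the rounding step, the size depends on the added constant, and it was -2.38 with a constant of 1.

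Slc22a18, a membrane transporter beside Phlda2, stood at 8.85, 8.78 and 7.27 in KSFM-Ca2+ cells and at 2.25, 1.92 and 2.46 in DKSFM cells. It was low in all 3 DKSFM libraries and fell by 1.86 on the log2 scale (SE 0.13, adjusted p = 2.46e-06). Ascl2, a transcription factor of trophoblast and intestinal stem cells, had values of 2.23, 1.90 and 1.43 against 0.643, 0.908 and 0.535. These low values did not overlap, and the log2 fold change was -1.30 (SE 0.24, adjusted p = 0.00103), or -0.75 with an added constant of 1. With the combined libraries alone, as named in the files (KSFM-Ca2+ replicate 3 and the 3 DKSFM libraries), it was -0.96 and no longer called (adjusted p = 0.0644, and 0.000227 to 0.0644 over all alternatives).

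The other members of the cluster moved less or were near 0. Cd81, a tetraspanin of the cell surface and among the most abundant members, went from 432.6 ± 9.53 to 581.3 ± 23.3 (mean ± SD, n = 3), with a log2 fold change of 0.43 (SE 0.04, adjusted p = 8.57e-06). Tssc4, a factor of spliceosome assembly, went from 83.2 ± 2.69 to 67.1 ± 4.64, with a log2 fold change of -0.31 (SE 0.05, adjusted p = 0.000781). With the combined libraries alone, 1 against 3, Tssc4 was not called though its log2 fold change was similar (-0.28, adjusted p = 0.0182, and 0.000368 to 0.0182 over all alternatives). Kcnq1, a potassium channel, was listed at 0.6, 0.4 and 0.3 in KSFM-Ca2+ cells and at 0.1, 0.1 and 0.2 in DKSFM cells and did not pass the filter. With no filter it was called, with a log2 fold change of -1.10 (SE 0.26, adjusted p = 0.00657). Cdkn1c, the cell cycle inhibitor p57, was listed at 0 or 0.1 in every library. Phlda2, Slc22a18 and Ascl2 thus fell in the cluster beside H19 and Igf2, which rose, while Cd81, which lies between Ascl2 and Slc22a18, rose.

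**Figure D2:**
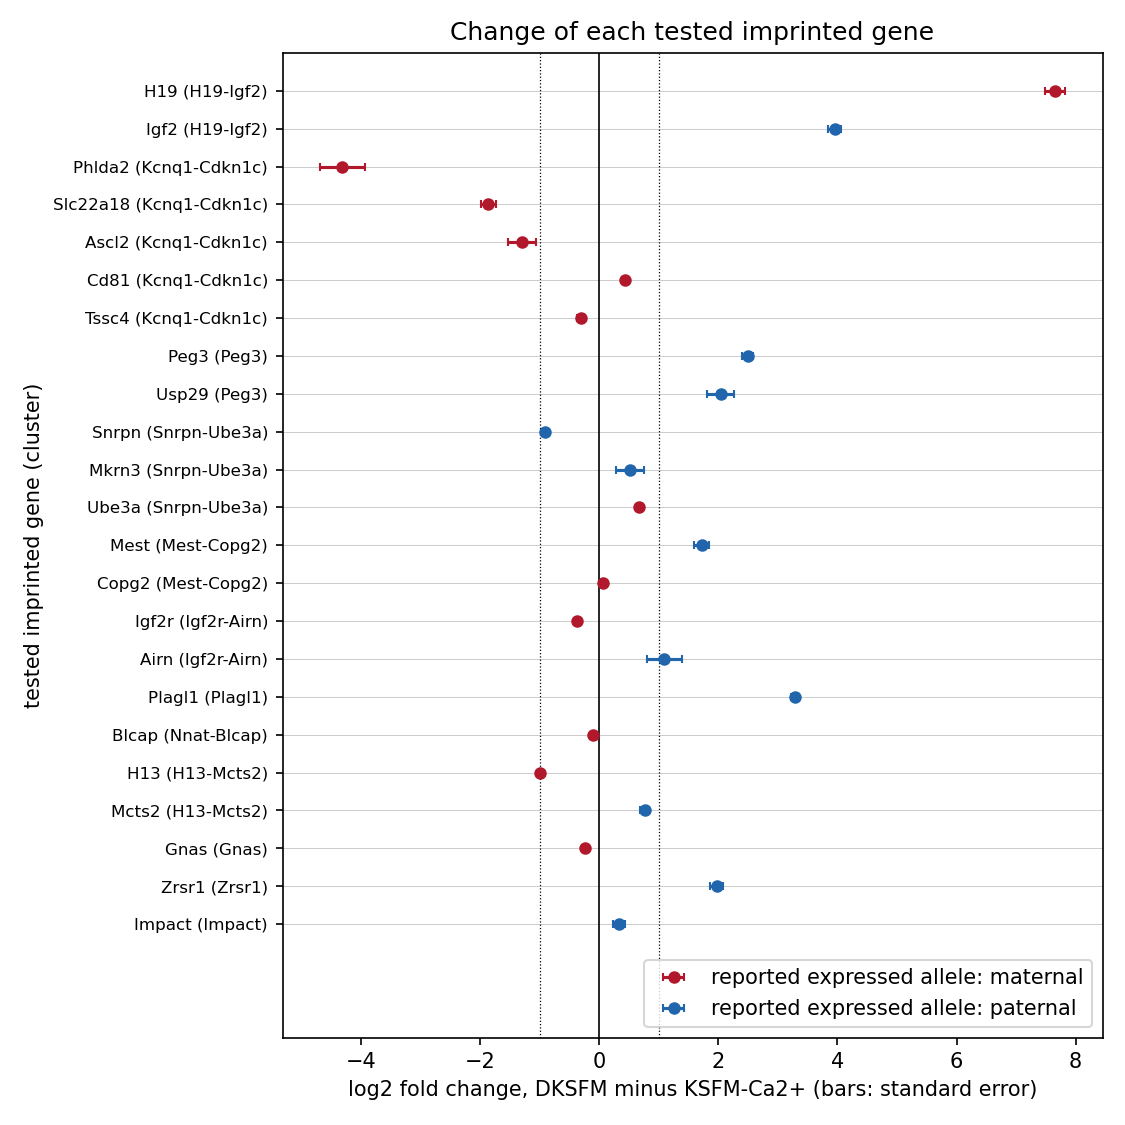
Log2 fold change (DKSFM minus KSFM-Ca2+, horizontal axis) of the 23 tested imprinted genes with a value above 0 in both lines, coloured by the parental allele reported to be expressed, with bars for the standard error and dotted lines at a 2-fold change. H19 is the red point with the largest rise, at 7.66, and most other red points lie at or left of 0, while most blue points lie to the right. Peg12, a paternally expressed gene that fell and was listed at 0 in DKSFM cells, is not drawn.

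Peg3 and Usp29 rose together. Peg3, a paternally expressed zinc finger protein, had a normalized coverage of 7.08, 6.69 and 5.48 in KSFM-Ca2+ cells and of 36.1, 35.6 and 37.3 in DKSFM cells. All 3 DKSFM libraries were high and close to each other. The log2 fold change was 2.49 (SE 0.09, adjusted p = 8.65e-08). Usp29, a paternally expressed deubiquitinase gene, starts 164 bases from Peg3 on the other strand, so 263 bases of their promoter windows are shared, and it stood at 0.308, 0.200 and 0.238 against 1.18, 1.21 and 1.61. It was low but higher in each DKSFM library, with a log2 fold change of 2.04 (SE 0.23, adjusted p = 5.33e-05). With an added constant of 1 this was 0.90, still called but under 2-fold. Zim1, a maternally expressed zinc finger gene of this cluster, was listed at 0 in 5 libraries and at 0.1 in DKSFM replicate 3.

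Plagl1, a paternally expressed zinc finger transcription factor known to act on other imprinted genes, stood at 3.62, 3.59 and 3.57 in KSFM-Ca2+ cells and at 33.8, 36.2 and 37.7 in DKSFM cells. Its replicates were close within each line and the lines lay far apart. Plagl1 had a log2 fold change of 3.28 (SE 0.06, adjusted p = 2.91e-09), a 9.73-fold rise. Mest, a paternally expressed gene for a hydrolase-like protein, had values of 7.85, 8.88 and 10.1 against 31.7, 32.5 and 25.1. It was high in all 3 DKSFM libraries, with a log2 fold change of 1.72 (SE 0.12, adjusted p = 3.30e-06). Copg2, a coat protein gene whose last exon overlaps that of Mest on the opposite strand, stood at 98.5 ± 3.51 and 103.2 ± 2.78 (mean ± SD, n = 3), with overlapping lines and no call (log2 fold change 0.07, SE 0.04, adjusted p = 0.129).

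Zrsr1, a paternally expressed copy of a splicing factor gene that lies within Commd1 on the opposite strand, stood at 2.31, 1.996 and 1.79 in KSFM-Ca2+ cells and at 8.47, 8.27 and 7.92 in DKSFM cells. Every DKSFM library was high, and the log2 fold change was 1.97 (SE 0.11, adjusted p = 8.14e-07). Commd1, from the list of other imprinted genes and named here for this overlap after its values were seen, went the other way, from 253.5 ± 4.23 to 202.2 ± 5.52 (mean ± SD, n = 3). Mcts2, a paternally expressed retrogene inside an intron of H13 on the same strand, had values of 62.7, 65.2 and 78.3 against 116.5, 119.2 and 112.7. It was higher in each DKSFM library, with a log2 fold change of 0.76 (SE 0.08, adjusted p = 3.03e-05). Its maternally expressed host H13, a signal peptide peptidase, went down from 43.0, 45.3 and 46.6 to 23.4, 21.7 and 22.9. For H13 the log2 fold change was -0.99 (SE 0.05, adjusted p = 4.02e-07), just short of 2-fold, and host and nested gene moved in opposite directions. Zrsr1 and Mcts2 have near copies elsewhere in the genome, so reads may have been shared with those and both values are uncertain.

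The Snrpn-Ube3a cluster was mixed. Peg12, a paternally expressed gene of the FRAT family, had a normalized coverage of 2.62, 2.99 and 2.86 in KSFM-Ca2+ cells and was listed at 0 in all 3 DKSFM libraries. No fold is given against a line listed at 0, and the adjusted p was 1.97e-07. Snrpn, a paternally expressed component of the spliceosome, stood at 113.9, 122.4 and 120.2 against 70.4, 56.9 and 63.1. It was lower in every DKSFM library and fell by 0.91 on the log2 scale (SE 0.07, adjusted p = 7.04e-06), and its exons are shared with Snurf on the same strand. Ube3a, a ubiquitin ligase expressed from the maternal allele in neurons and from both alleles in most other cells, went from 27.9 ± 0.56 to 44.3 ± 2.61 (mean ± SD, n = 3), a log2 fold change of 0.67 (SE 0.05, adjusted p = 4.93e-06). Mkrn3, a paternally expressed RING finger gene, was listed at 0.5, 0.5 and 0.4 and at 0.8, 0.7 and 0.5, with no call (log2 fold change 0.52, SE 0.24, adjusted p = 0.0728). Ndn and Magel2, paternally expressed genes of the MAGE family, were listed at 0 in all 6 libraries.

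Gnas, which encodes the stimulatory G protein subunit and has several promoters with different imprints, was the most abundant member. It had a normalized coverage of 2970.4, 2980.9 and 3014.5 in KSFM-Ca2+ cells and of 2570.6, 2410.8 and 2592.2 in DKSFM cells, without overlap. Its log2 fold change was small, at -0.24 (SE 0.03, adjusted p = 0.000196). Coverage per gene sums its transcripts, so those of each promoter were not told apart. Blcap, a small protein linked to apoptosis, stood at 88.8 ± 3.20 and 83.0 ± 1.63 (mean ± SD, n = 3) and was not called (log2 fold change -0.10, SE 0.04, adjusted p = 0.0401). Impact, a paternally expressed regulator of translation under amino acid shortage, stood at 11.5 ± 0.34 and 14.7 ± 2.22, with no call (log2 fold change 0.33, SE 0.10, adjusted p = 0.0177). Without DKSFM replicate 3 Impact was called (adjusted p = 0.00169, and 0.00169 to 0.143 over all alternatives).

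The other members were listed at or near 0 in both lines, and with values rounded to 0.1 a listed 0 need not mean absent. Those listed at 0 in all 6 libraries were Dlk1 and Meg3, a growth regulator and a noncoding RNA of 1 cluster, and Peg10, Sgce, Asb4 and Ppp1r9a of the Peg10-Sgce cluster. Nnat, Dcn, Ndn and Magel2 complete the 10. Dcn, the matrix proteoglycan decorin, is an abundant product of dermal fibroblasts. Grb10, a maternally expressed adapter that restrains insulin receptor signals, was listed at 0.1 in KSFM-Ca2+ replicates 1 and 3 and at 0 elsewhere, and Rasgrf1, a Ras exchange factor of neurons, at 0.1 in DKSFM replicate 3 alone.

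By reported allele, 12 paternally and 12 maternally expressed members were tested. Of the paternally expressed members, 8 rose and 2 fell, 7 and 1 of them by at least 2-fold. Of the maternally expressed members, 3 rose and 7 fell, 1 and 3 of them by at least 2-fold. Usp29, Mkrn3 and Peg12 of the paternal group and H19 and Phlda2 of the maternal group reached the filter through 1 line alone. Their differences are thus partly built into the filter. The call of Airn was lost under some alternatives, and the values of Zrsr1 and Mcts2 are uncertain. Ube3a, which rose, and Gnas, which fell, are counted as maternal. As said above, most cells other than neurons express Ube3a from both alleles, and the promoters of Gnas differ in imprint. For other members of either group too, imprinting may be limited to the placenta or the brain. The groups thus follow reports, and the allele in use in these cells was not measured. Called were thus 10 of 12 in each group, where 72.5% of all tested genes were called, 35.5% higher and 37.0% lower, and 13.3% and 10.5% by at least 2-fold. The median log2 fold change was 1.41 in the paternal group and -0.28 in the maternal group, beside 0.00015 over all tested genes. No test of this difference was made, since the members were chosen with results of these data known.

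Neighbours on the chromosome were read for 22 tested members that had tested genes other than members within 1 Mb on either side. Such genes can be imprinted genes outside the 39 or can overlap a member. The median log2 fold change of these neighbours ran from -0.82 to 1.01, and 12 members differed from theirs by at least 1. All of these but Ube3a had themselves changed by at least 2-fold, so the count largely repeats those calls. The same count was not made for all tested genes, so it has no share beside it. Within 1 Mb of H19 the median was 0.31 over 15 genes, and within 10 Mb -0.32 over 100 genes, against 7.66 for H19. Mir675, which reads the H19 transcript, lies in both of these ranges. For Igf2 the medians were 0.12 over 17 genes, Mir675 among them, and -0.33 over 99 genes. For Plagl1 they were 0.21 over 11 genes and 0.25 over 68 genes, and for Mest 0.08 over 13 genes and 0.17 over 80 genes. None of these medians came near the change of the member beside it. H19, Igf2, Plagl1 and Mest all rose by at least 2-fold, while a median over many genes tends toward that of all tested genes (0.00015). The gap was thus largely set by the choice of these members, and its cause was not tested.

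Some neighbours of Peg3 and Usp29 rose as well and others were not called. The 9 tested neighbours of Peg3 within 1 Mb had a median of 1.01, 5 of them rose by at least 2-fold and 0 fell by that much, and the median within 10 Mb was 0.65 over 81 genes. The nearest on the high side, Zfp954, Zfp418 and Zfp772, are zinc finger genes with log2 fold changes of 1.48, 1.16 and 2.30. On the low side Zfp28, the closest to Peg3 of all, and Zfp78 were not called (log2 fold changes -0.10 and 0.55, adjusted p = 0.693 and 0.0226), and Zfp444 beyond them had a log2 fold change of 1.01. The neighbours of Phlda2 had a median of -0.61 over 15 genes, among them Nap1l4 from the list of other imprinted genes. Nap1l4 and Cars, the nearest on the high side of Phlda2, had log2 fold changes of -0.61 and -0.66, with Tnfrsf26 beyond them at -2.83. On the low side of Phlda2 and farther away, R74862 and Mrpl23 were not called (log2 fold changes 0.12 and -0.93, adjusted p = 0.345 and 0.0441). Mir675 between them rose with H19. Near Snrpn the 3 tested neighbours, which include Snurf, had a median of -0.82, but Gm7367 among them rose (log2 fold change 0.30, adjusted p = 0.00534). Neighbours were named for their position alone, and their part in the result was not tested.

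**Figure D3:**
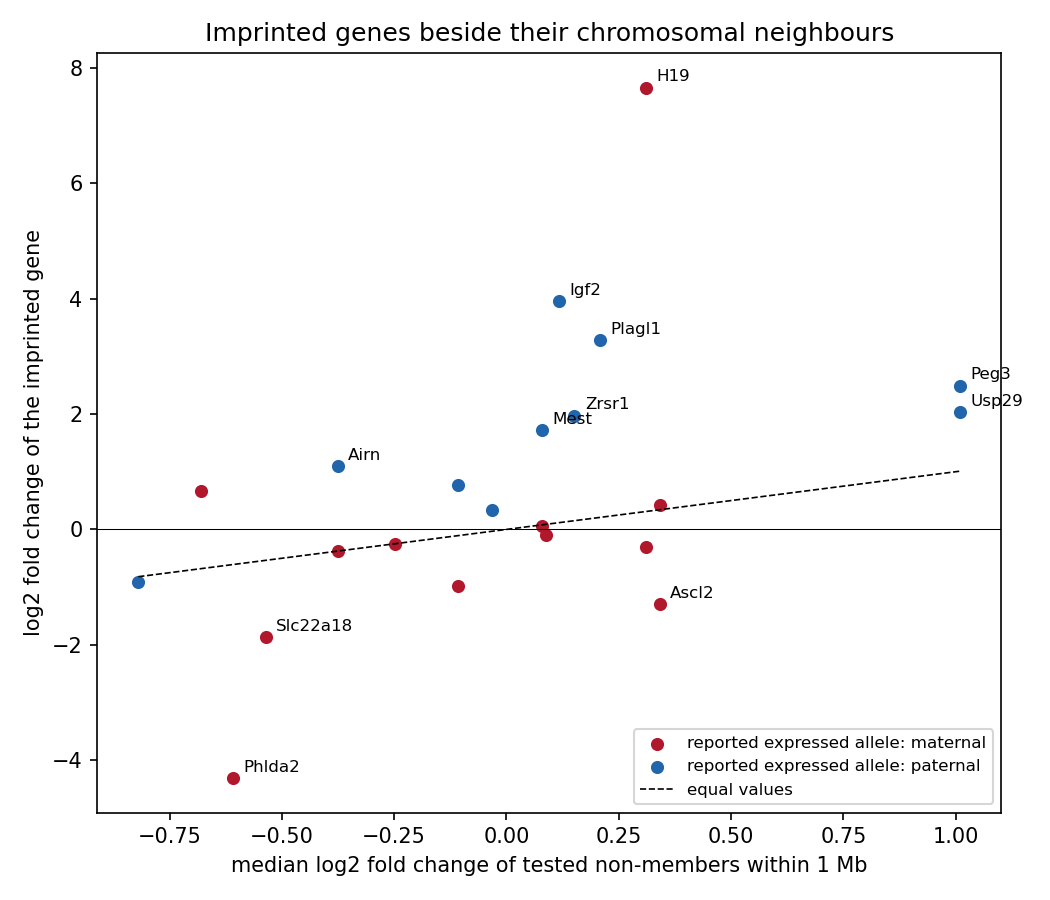
Log2 fold change (DKSFM minus KSFM-Ca2+) of 22 tested imprinted genes (vertical axis) against the median log2 fold change of tested genes other than members within 1 Mb on either side (horizontal axis), coloured by reported expressed allele, with a dashed line where both are equal. H19, Igf2 and Plagl1 lie far above the line, Phlda2 far below it, and Peg3 and Usp29 sit over neighbours whose median is 1.01.

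Further imprinted genes outside the 39 were read as well. Of 43 such genes, 42 were listed, 15 of them at 0 in all libraries, and 16 were tested. Among these 16, 3 rose and 10 fell, with 1 and 3 at least 2-fold and a median log2 fold change of -0.37. Over all tested genes 72.5% were called, 35.5% higher and 37.0% lower, and 13.3% and 10.5% by at least 2-fold. Osbpl5, a lipid transfer protein gene near Phlda2, rose from 64.0 ± 2.18 to 128.9 ± 3.93 (mean ± SD, n = 3). Those that fell by at least 2-fold were Casd1 next to Sgce, from 5.05 ± 0.11 to 1.12 ± 0.27, Tnfrsf23 near Phlda2, from 120.1 ± 5.55 to 35.0 ± 2.90, and Sfmbt2, from 1.13 ± 0.09 to 0.317 ± 0.11.

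Of 22 factors that set or keep imprints, 18 were tested, 11 rose and 6 fell, but only Tet2 moved by at least 2-fold. Beside them, 72.5% of all tested genes were called, 35.5% higher and 37.0% lower, and 13.3% and 10.5% by at least 2-fold. Tet2, an enzyme that oxidises methylated cytosine, stood at 3.68 ± 0.61 in KSFM-Ca2+ cells and at 8.43 ± 0.17 in DKSFM cells (mean ± SD, n = 3), with a log2 fold change of 1.19 (SE 0.12, adjusted p = 3.68e-05). The genes in the next sentences were chosen for their roles after their values were seen. Dnmt1, which copies methylation after replication, and Uhrf1, which guides it, had log2 fold changes of -0.36 (SE 0.03, adjusted p = 9.69e-06) and -0.88 (SE 0.05, adjusted p = 1.31e-06). Zfp57, which binds imprinted regions, was listed at 0 in all libraries, while Zfp445, which has a related role, and their partner Trim28 had log2 fold changes of 0.996 (SE 0.04, adjusted p = 1.03e-07) and 0.56 (SE 0.03, adjusted p = 9.19e-07).

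Markers of keratinocytes were high in both lines, with all 10 tested, 7 higher and 2 lower in DKSFM cells. Over all tested genes 35.5% were higher and 37.0% lower, and 13.3% and 10.5% by at least 2-fold. The summed normalized coverage of the markers was 21482, 21831 and 21477 in KSFM-Ca2+ cells and 50740, 46929 and 51206 in DKSFM cells. Krt14, a basal keratin, was the most abundant. Those at least 2-fold higher were Perp, Krt14, Dsp and Krt5, with log2 fold changes of 1.62, 1.31, 1.27 and 1.25, while Epcam had one of -1.50.

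Of 10 fibroblast markers, 6 were listed at 0 in all libraries, namely Col1a1, Col1a2, Col3a1, Pdgfrb, Lum and Thy1, as was Dcn among the members. The summed normalized coverage of the list was 9.54, 8.68 and 8.58 in KSFM-Ca2+ cells and 22.9, 23.6 and 18.7 in DKSFM cells. In DKSFM cells the most abundant was Postn, a matrix protein gene, at 0.404 ± 0.29 in KSFM-Ca2+ cells and 19.4 ± 2.61 in DKSFM cells (mean ± SD, n = 3). In KSFM-Ca2+ cells it was Twist2, which went from 7.41 ± 0.27 to 0.0357 ± 0.06. Pdgfra, a growth factor receptor, rose from 1.12 ± 0.21 to 2.24 ± 0.12 (log2 fold change 0.95, SE 0.16, adjusted p = 0.000736).

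The other marker lists were low. The 7 melanocyte markers summed to 4.15, 3.99 and 4.65 in KSFM-Ca2+ cells and to 17.5, 18.96 and 18.5 in DKSFM cells, most of it from Mitf (3.55 ± 0.42 and 17.9 ± 0.65), with Dct and Tyr at 0. The 5 endothelial markers summed to 2.85, 3.19 and 3.34 and to 8.36, 8.37 and 7.49, most of it from Pecam1, with Cdh5 and Emcn at 0. The 6 immune cell markers summed to 1.31, 1.60 and 2.02 and to 0.107, 0.202 and 0.107, led in KSFM-Ca2+ cells by Cd74, which was listed at 0 in DKSFM cells, with Cd3e at 0 in all libraries. All 5 pluripotent cell markers, Pou5f1, Nanog, Dppa5a, Zfp42 and Esrrb, were listed at 0. The 5 muscle markers summed to 1.69, 0.998 and 2.02 and to 1.07, 0.202 and 0.214, led by Acta1, with Myod1 and Myf5 at 0. The 5 neural markers summed to 6.39, 6.59 and 6.67 and to 9.75, 8.27 and 10.6, led by Tubb3, with Snap25 at 0. The part of such markers in the changes of imprinted genes was not tested.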

How the data were processed

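Per the labels, the authors used bcl2fastq, STAR and DESeq2 and the mm10 build. For each of 24982 genes the authors deposited coverage, a signal averaged over the gene's bases, rounded to 1 decimal and not scaled. Coverage is not a count, so DESeq2 was not used here. Libraries were scaled with trimmed means of M values, unweighted (trims of 30% and 5%, factors 0.991 to 1.01), and genes with at least 0.5 in at least 3 libraries were kept. Limma 3.58.1 (R 4.3.3) was fitted with an intensity trend to log2(normalized coverage + 0.1) of the 6 libraries, without covariates, and p-values were adjusted by Benjamini-Hochberg over 12450 genes at a threshold of 0.01. The procedure was tested on simulated data, with changes placed only in genes with a mean of 1 or more and the same relative noise for all genes. That test does not cover genes near the rounding step or with widely spread replicates. The files hold no read counts, and the rounding step limits low values. Members and gene lists were chosen with earlier results of these data known. The genes named were every member, list genes past the threshold with at least a 2-fold change and a mean of 1 or more in the higher line (up to 5 per list and direction), and defining cell type markers. Expressed alleles and roles are textbook background. Positions came from GENCODE M21, and figures were drawn with matplotlib 3.10.9. The alternatives were 3 other scalings, 2 other filters, constants of 0.5 and 1, no trend, a replicate block, a threshold of 0.05, each library left out, and combined libraries alone. Labels do not say what replicates or combined files are.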

Additional observations from a re-analysis of the deposited data

How the results depend on the processing

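Of the 24 tested imprinted genes, 19 kept their direction and their side of the threshold under each of the 17 alternatives that could give them a value, and 0 changed direction. The other 5 were Airn, Ascl2, Tssc4, Impact and Blcap; Blcap was called at an adjusted p under 0.05 (it was 0.0401), as was Impact. The filter on every library left 19 members tested. Members called numbered 16 to 22 over the alternatives against 20 in the report. At least 2-fold higher in DKSFM were 6 to 8 members against 8. At least 2-fold lower were 2 to 5 members against 4: 2 with the filter on every library and 2 with the combined libraries alone. Phlda2 and Peg12, near or at 0 in DKSFM cells, were no longer tested in either, and with the combined libraries Ascl2 was also no longer called while H13 passed 2-fold (log2 fold change -1.04). With 1 library left out, and the filter then asking for 2 libraries in place of 3 (as with the combined libraries), 19 to 20 members were called, 7 to 8 were at least 2-fold higher and 4 to 5 at least 2-fold lower. With the combined libraries alone, the single KSFM-Ca2+ library was assumed to vary like the DKSFM libraries. The median over all tested genes moved at most to -0.05, under quantile normalization.

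With replicate number as a replicate block, 20 members were called, 8 at least 2-fold higher and 4 at least 2-fold lower. Libraries of the same number did not deviate together: the correlations across genes of their deviations from the line means were -0.00864, 0.0227 and -0.0204. The labels give no pairing beyond the number. The files hold no read counts, and the rounding step limits low genes. With no filter 5 more members were fitted: Kcnq1 was called lower (log2 fold change -1.10, adjusted p = 0.00657), while Cdkn1c, Grb10, Zim1 and Rasgrf1 were not (adjusted p 0.145 to 0.975). With an added constant of 1, Usp29, Airn and Ascl2 were still called but under 2-fold.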
